A study of Bos taurus with 71 samples.

Results

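The rumen and the ileum of 3-week-old calves were compared, that is, the 5 rumen and the 5 ileum samples taken at day 21 post-partum (D21) out of the 71 samples of the series. Samples were selected by the tissue, day and calf number that their titles give. A rumen and an ileum sample with equal numbers were taken as 1 calf. The main test did not pair them, and the calf entered as a block only in an alternative. RNA-Seq of bulk tissue was run with 1 library per sample on Holstein bull calves at 4 ages, and calves differed between ages. The D21 calves had received colostrum after birth, then milk, and had free access to calf starter, a solid grain-based feed first offered between the D7 and D21 samplings. The ileum was a segment just proximal to the ileo-cecal fold, frozen before RNA extraction. The site and layers of the rumen that were sampled are not described in the sources used here, and no treatment separated the calves of 1 age.

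The rumen is a fermentation chamber lined by a keratinizing stratified squamous epithelium that absorbs the acids made by microbes, above a wall of connective tissue and smooth muscle. The ileum is lined by a single layer of columnar absorptive and secretory cells and, in calves, carries a continuous Peyer's patch, a lymphoid organ filled with B cell follicles. Both surfaces face microbes, with different barriers and different numbers of immune cells beneath them.

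The values are CPM (read counts per 1000000 mapped reads) rounded to whole numbers, so 1 CPM is the smallest step. The 10 libraries summed to between 975133 and 984035, and the depth behind each is unknown. The study gives only an average depth, over its jejunum and ileum libraries. A gene was detected at 1 CPM or more for 13822 to 14238 identifiers per rumen sample and 14526 to 14717 per ileum sample. The 20 genes with the highest values took 19.6% to 24.2% of the total in the rumen and 8.86% to 10.1% in the ileum. Pearson correlations of log2(CPM + 1) across genes lay between 0.929 and 0.972 within the rumen, between 0.952 and 0.985 within the ileum and between 0.589 and 0.632 across the regions, so each sample sat with its own label. Files labelled distal jejunum were identical to those of the ileum and were left out. After scaling and rounding, the 5 ileum samples equal the ileal CPM in the study's own table of immune-related genes for 99.5% to 100% of its 1280 genes.

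A gene was called different when its FDR (the Benjamini-Hochberg adjusted p from limma) was below 0.05 and its fold change above 2. Fold changes are given as log2 of the rumen over the ileum, so a positive value is higher in the rumen. Of 14244 genes tested, 1970 were higher in the rumen (13.8%) and 4282 were higher in the ileum (30.1%), 43.9% in all. The median of all genes tested was -0.43. Scaling the libraries by their median ratio moved that median to -0.05 and gave 2789 and 3066 genes, so the share of calls that were higher in the rumen moved from 31.5% to 47.6%. With quantile normalization the share was 51.2%. Small differences in either direction are therefore read against this shift, while differences of more than 16 times, which 251 genes showed in favour of the rumen and 492 in favour of the ileum, are far outside it.

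Gene names were at hand for the immune-related genes of that table. The study picked them as expressed in the jejunum and ileum, so genes that only the rumen uses, such as its keratins, have no name here, and the direction of the named genes is not independent of that choice. Among the 1280 genes, 162 were higher in the rumen (12.7%) and 476 in the ileum (37.2%), with a median of -0.57. Over all genes tested these shares were 13.8% and 30.1%, with a median of -0.43. All 31 of the 1280 genes that were listed at 0 throughout a region were at 0 in the rumen, a direction that the study's choice favours. Among the calls over all genes tested, 478 genes were at 0 throughout the rumen and 301 throughout the ileum. The CPM of the groups did not overlap for 200 of the 1280 towards the rumen and 588 towards the ileum, which is 15.6% and 45.9%, against 15.7% and 39.5% of all genes tested.

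The largest differences belonged to identifiers that the table of immune-related genes does not hold, and symbols that the study gives elsewhere were not used. ENSBTAG00000006806 had 9493, 8161, 7897, 10045 and 9249 CPM in the rumen of calves 1 to 5 and was listed at 0 in all 5 ileum samples. ENSBTAG00000004097 had 8097, 9073, 4794, 11428 and 7864 CPM in the rumen and was also listed at 0 throughout the ileum. In the other direction, ENSBTAG00000005759 was listed at 0 in the rumen and had 942 to 1797 CPM in the ileum. ENSBTAG00000019798 was at 0 in the rumen as well, with 1427, 688, 455, 2409 and 1698 CPM in the ileum. Each of these 4 features therefore marked a single region in every calf.

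Epithelial genes differed by region, against shares over all genes tested of 13.8% higher in the rumen and 30.1% higher in the ileum. Of 28 genes of stratified squamous epithelium and its junctions, 21 were higher in the rumen, 3 were higher in the ileum and 4 were not called, with a median of 2.22. Of 18 genes of the intestinal epithelium, 17 were higher in the ileum and 0 in the rumen, with a median of -4.84. The list sums did not overlap: squamous genes summed to 10388 to 14741 CPM in the rumen and 874 to 1727 CPM in the ileum, and intestinal genes to 142 to 239 CPM in the rumen and 1340 to 4193 CPM in the ileum. The defining markers thus matched the region on the label, with APOA4, APOB and 5 other intestinal genes listed at 0 in every rumen sample.

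Among the squamous genes, DSP (ENSBTAG00000015106), which encodes desmoplakin, the plaque protein that ties desmosomes to keratin filaments, had 5390, 7545, 4636, 7445 and 6523 CPM in the rumen. In the ileum it had 185, 165, 104, 282 and 254 CPM. The groups were far apart, with a log2 fold change of 5.04 (SE 0.25, FDR 2.23e-09). DSC2, a cadherin of the same junctions, ranged from 730 to 1525 CPM in the rumen and from 24 to 58 CPM in the ileum (log2 fold change 4.69). MPZL2 (ENSBTAG00000033510), an adhesion molecule of epithelia, showed the largest difference of the named genes higher in the rumen, with 346, 381, 239, 407 and 368 CPM in the rumen against 3, 3, 3, 5 and 6 CPM in the ileum (6.15, SE 0.20, FDR 5.22e-11). Every rumen sample was at least an order of magnitude above every ileum sample for these junction genes.

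Genes of cell coupling and transport followed the same order. GJA1 (ENSBTAG00000001835), which encodes the gap junction protein connexin 43, had 2393, 2952, 2184, 2977 and 2957 CPM in the rumen and 41, 34, 36, 48 and 48 CPM in the ileum (5.99, SE 0.14, FDR 1.97e-12). AQP3, a channel for water and glycerol in basal epithelial cells, had 927 ± 174 CPM in the rumen and 25.6 ± 5.5 CPM in the ileum (mean ± SD, n = 5; 5.13). ECM1, a secreted matrix protein of skin-type epithelia, had 805 ± 165 and 18.4 ± 2.7 CPM (5.36), and ANXA1, a calcium-dependent membrane-binding protein with anti-inflammatory actions, had 832 ± 131 and 44.6 ± 5.03 CPM (4.18). The remaining squamous genes higher in the rumen included ITGB4, the integrin chain of hemidesmosomes (2.23).

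The squamous list also held 3 members that went the other way. CARD14, an adaptor of NF-kB signalling, had 3, 5, 3, 2 and 2 CPM in the rumen and 24, 21, 16, 57 and 35 CPM in the ileum (-2.89, FDR 3.73e-06). DSG2, the desmosomal cadherin of simple epithelia, had 47.4 ± 10.5 CPM in the rumen and 178 ± 89 CPM in the ileum (-1.76), and the desmosomal plaque gene PKP2 overlapped between the groups (-1.10) and was not called under median-ratio scaling.

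**Figure D1:**
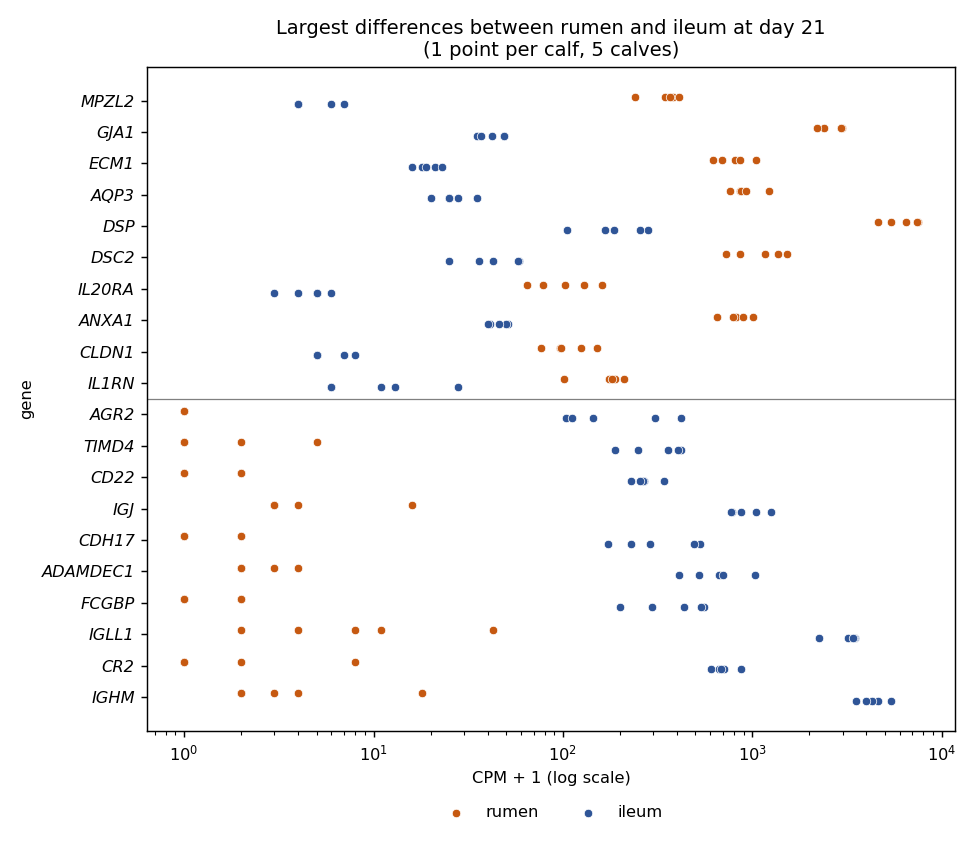
CPM + 1 on a log scale for the 10 named genes with the largest difference in each direction at D21, with 1 point for each calf in the rumen (orange) and in the ileum (blue). The genes were picked as called and free of overlap between the regions, and AGR2 is at 0 CPM (plotted at 1) in all 5 rumen samples.

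Intestinal genes were near 0 in the rumen. FCGBP (ENSBTAG00000005261), a mucus protein of goblet cells, was listed at 0, 0, 0, 1 and 1 CPM in the rumen and at 435, 295, 200, 553 and 533 CPM in the ileum (-8.16, SE 0.32, FDR 2.65e-10). CDH17 (ENSBTAG00000021964), the liver-intestine cadherin, was at 1, 1, 0, 0 and 0 CPM in the rumen and at 289, 229, 173, 526 and 492 CPM in the ileum (-7.89, FDR 5.98e-10). AGR2, a protein-folding enzyme of mucus-secreting cells, was listed at 0 in the rumen and had 144, 103, 111, 306 and 418 CPM in the ileum. In the rumen these genes were thus at the smallest step of the scale.

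The exceptions in this list were EPCAM and GCNT3. EPCAM, an adhesion molecule of many epithelia, had 137, 106, 88, 133 and 78 CPM in the rumen and 286, 281, 243, 670 and 498 CPM in the ileum, which left the groups apart but by a much smaller step (-1.78, SE 0.27, FDR 6.65e-05). GCNT3, a glycosyltransferase that branches mucin sugars, was not called, with 27 to 101 CPM in the rumen and 12 to 149 CPM in the ileum. In the ileum, calves 1 to 3 lay below every rumen sample and calf 4 above them all.

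The sum of the intestinal list was highest in the ileum of calves 4 and 5, but its members did not vary together. The list summed to 3009, 1679, 1340, 4011 and 4193 CPM in the ileum of calves 1 to 5. DMBT1, a secreted scavenger receptor that binds bacteria, had 525, 144, 190, 919 and 1163 CPM there, while the rumen had 2 to 14 CPM (-6.07, SE 0.59, FDR 1.23e-06, and -6.77 without calf 2). In contrast, the apolipoprotein genes APOA1 and APOA4 were highest in calf 1, with 412 and 90 CPM, and AMN, a part of the receptor for vitamin B12, had 31, 30, 37, 17 and 18 CPM. In bulk tissue, fewer cells of a type and less RNA per cell cannot be told apart, for these samples and for the regional differences alike.

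Of 10 tight junction genes, 2 were higher in the rumen, 3 were higher in the ileum and 5 were not called, with a median of 0.23. These counts are near the shares over all genes tested, 13.8% and 30.1%. CLDN1 (ENSBTAG00000013148), a sealing claudin of stratified epithelia, had 96, 150, 97, 124 and 76 CPM in the rumen and 4, 6, 4, 4 and 7 CPM in the ileum (4.18, SE 0.21, FDR 2.28e-09). CLDN4, another sealing claudin, had 444, 396, 293, 345 and 257 CPM in the rumen and 30, 20, 40, 72 and 36 CPM in the ileum (3.19, SE 0.27, FDR 3.62e-07). CLDN2, which forms cation and water pores in leaky epithelia, was listed at 0 in all rumen samples and had 122, 82, 59, 154 and 222 CPM in the ileum. CLDN3 (-4.66) and CLDN7 (-1.82) were also higher in the ileum. The junctional genes F11R, CGN and CLDN12 had overlapping values, with log2 fold changes between 0.16 and 0.30. All 5 claudin calls were kept under median-ratio scaling, which added 2 genes higher in the rumen.

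**Figure D2:**
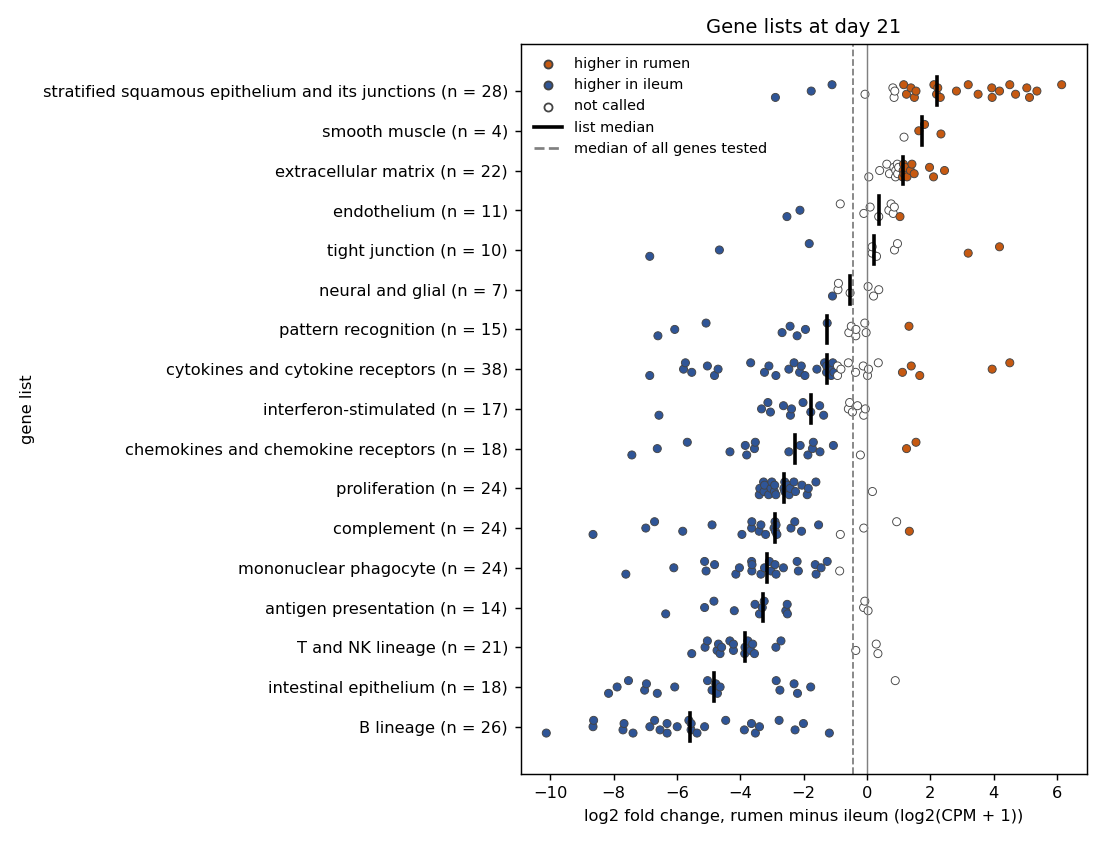
Log2 fold change (rumen minus ileum, on the log2(CPM + 1) scale) of every member of the 17 gene lists at D21, with 1 point per gene, filled orange where called higher in the rumen, blue where called higher in the ileum and white where not called. Black bars are list medians, from -5.59 for B lineage to 2.22 for squamous epithelium, and the dashed line is the median of all genes tested, -0.43.

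All 26 B lineage genes were higher in the ileum (30.1% over all genes tested), with a median of -5.59. Their groups did not overlap, as was so in this direction for 39.5% of all genes tested. They summed to 10395 to 15431 CPM in the ileum and 146 to 265 CPM in the rumen. IGHM (ENSBTAG00000048049), the immunoglobulin mu heavy chain, had 4634, 5415, 4268, 3999 and 3524 CPM in the ileum and 1, 17, 3, 2 and 1 CPM in the rumen (-10.13, SE 0.48, FDR 1.7e-09). CR2 (ENSBTAG00000038496), the complement receptor of mature B cells and follicular dendritic cells, had 603 to 868 CPM in the ileum and 0, 7, 1, 0 and 0 CPM in the rumen (-8.65, FDR 6.77e-09). CD22, an inhibitory receptor of B cells, had 0.4 ± 0.548 and 270.6 ± 42.2 CPM (-7.67). IKZF3, CD27, FAIM3 and GCSAM were listed at 0 in all 5 rumen samples. The smallest B lineage difference was that of BCL11A (-1.19), a transcription factor that other cells also use, and it was not called under median-ratio scaling.

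The same list holds further immunoglobulin-related genes. IGJ, the joining chain of polymeric antibodies, had 875, 1043, 778, 1249 and 768 CPM in the ileum and 2, 15, 3, 2 and 2 CPM in the rumen (-7.71, SE 0.40, FDR 3.61e-09). IGLL1 had 3185, 3498, 3447, 3422 and 2262 CPM in the ileum and 7, 42, 10, 3 and 1 CPM in the rumen (-8.63), and immunoglobulin light chain genes may share reads. The rumen of calf 2 had the highest value of IGHM, CR2, IGLL1 and IGJ, and without that library the log2 fold changes of IGHM, IGLL1 and IGJ were -10.68, -9.24 and -8.17.

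Of 21 T and NK lineage genes, 18 were higher in the ileum (30.1% over all genes tested) and 3 were not called. The median was -3.86. IL2RG, the common gamma chain of several interleukin receptors, had 145 to 187 CPM in the ileum and 4, 8, 1, 2 and 1 CPM in the rumen (-5.53, SE 0.36, FDR 2.46e-08). CD8A was listed at 0 throughout the rumen and had 12 to 28 CPM in the ileum. The general T cell gene CD2 had 0 or 1 CPM in the rumen and 33 to 45 CPM in the ileum.

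The 3 chains of the CD3 complex, which assembles with the T cell receptor, did not follow each other. CD3E had 2, 5, 1, 2 and 1 CPM in the rumen and 62, 71, 56, 85 and 78 CPM in the ileum (-4.59, SE 0.28, FDR 1.4e-08). CD3D had 28, 68, 26, 83 and 44 CPM in the rumen and 34, 42, 21, 48 and 45 CPM in the ileum, so the groups overlapped (0.29, SE 0.32, FDR 0.436). CD3G had 20, 31, 11, 41 and 19 CPM in the rumen and 17, 17, 11, 22 and 22 CPM in the ileum (0.34, SE 0.31, FDR 0.326). In the rumen, calves 2 and 4 had the highest values of both CD3D and CD3G, and CD3E stayed at 5 CPM or less in every calf. The same split was seen in the other calves: the rumen had 16 to 38 CPM of CD3D and 0 to 3 CPM of CD3E at D7, and 24 to 64 and 1 to 2 CPM at D42. These chains were singled out after their values were seen, and whether reads of other transcripts were counted on CD3D or CD3G was not tested.

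Of 24 mononuclear phagocyte genes, 23 were higher in the ileum (30.1% over all genes tested), with a median of -3.16. Only HAVCR2 was not called (-0.86). TIMD4, a phosphatidylserine receptor of resident macrophages, had 360, 419, 403, 188 and 249 CPM in the ileum and 1, 4, 0, 0 and 0 CPM in the rumen (-7.61, SE 0.42, FDR 6.5e-09). CD68, a lysosomal protein of macrophages, had 124, 123, 95, 96 and 107 CPM in the ileum and 6, 12, 4, 3 and 4 CPM in the rumen (-4.14, FDR 2.72e-08). CSF1R, the receptor that sustains macrophages, had 149 to 233 CPM in the ileum and 23, 49, 18, 14 and 12 CPM in the rumen (-3.24). None of the 24 was listed at 0 in all 5 rumen samples, and the list summed to 110 to 377 CPM there, with calf 2 the highest and calf 5 the lowest. ADAMDEC1, a metalloprotease of intestinal macrophages and stroma, was at 1 to 3 CPM in the rumen and 410 to 1027 CPM in the ileum (-7.99).

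Of 14 antigen presentation genes, 11 were higher in the ileum (median -3.28), against 30.1% over all genes tested. The 3 that were not called are chaperones and a protease of the endoplasmic reticulum that all cells use. CD74, the invariant chain of MHC class II, had 5182, 5795, 4916, 4672 and 4786 CPM in the ileum and 597, 576, 450, 417 and 240 CPM in the rumen (-3.54, SE 0.22, FDR 1.69e-08). CIITA, the transcriptional activator of MHC class II, had 135 ± 8.83 and 6.8 ± 2.39 CPM (-4.19), and B2M, the light chain of MHC class I, had 2348 to 4490 CPM in the ileum and 451 to 647 CPM in the rumen (-2.56). CALR (-0.11), CANX (0.03) and HM13 (-0.07) overlapped between the regions. BTNL2, a butyrophilin-like gene of gut epithelium, was listed at 0 in the rumen and had 57, 48, 56, 172 and 131 CPM in the ileum, highest in calves 4 and 5.

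Among 18 chemokines and chemokine receptors, 15 were higher in the ileum (30.1% over all genes tested) and 2 in the rumen. Their median was -2.29. CXCL13, which draws B cells into follicles, was listed at 0 in the rumen and had 114, 149, 225, 187 and 204 CPM in the ileum. CCL25, the chemokine of small intestinal epithelium, and its receptor CCR9 were higher in the ileum, at 75 to 156 CPM and 7 to 13 CPM, with at most 1 CPM of CCL25 and 0 CPM of CCR9 in the rumen. CXCR4, the receptor of CXCL12, had 221 to 347 CPM in the ileum and 3 to 8 CPM in the rumen (-5.67, SE 0.22, FDR 2.35e-10). The 2 chemokines higher in the rumen were CXCL14 and CX3CL1, a count near the share over all genes tested, 13.8%. Which cells made them was not tested. CXCL14 had 198, 224, 136, 237 and 200 CPM in the rumen and 72, 56, 53, 68 and 88 CPM in the ileum (1.55, SE 0.17, FDR 4.08e-06), and CX3CL1 had 19 ± 4.3 and 7.6 ± 2.51 CPM (1.25).

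The 38 cytokine and cytokine receptor genes were less one-sided, with 24 higher in the ileum, 5 higher in the rumen and a median of -1.28. The rumen count is near the share over all genes tested, 13.8%, while the share higher in the ileum was 30.1%. In the ileum the largest was IL21R, the receptor of the follicular helper cytokine interleukin 21, with 200, 220, 245, 140 and 164 CPM against 0 to 2 CPM in the rumen (-6.86, SE 0.30, FDR 7.49e-10). LTB, lymphotoxin beta, which organises lymphoid tissue, had 196 ± 39.5 CPM in the ileum and 2.8 ± 1.1 CPM in the rumen (-5.73). In the rumen the largest was IL20RA, a receptor chain through which interleukin 20 family cytokines act on epithelium, with 101, 78, 64, 129 and 160 CPM against 3, 2, 4, 4 and 5 CPM in the ileum (4.51, SE 0.26, FDR 8.78e-09). IL1RN, the antagonist of interleukin 1 receptors, had 210, 174, 100, 188 and 180 CPM in the rumen and 5, 5, 10, 27 and 12 CPM in the ileum (3.95, SE 0.37, FDR 9.54e-07). The receptor chain genes IL17RC (1.66), IL6ST (1.40) and IL13RA1 (1.12) made up the rest. Median-ratio scaling lowered the ileal count of this list to 17, with 5 again called higher in the rumen.

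Pattern recognition genes differed by member. Of 15 genes, 8 were higher in the ileum, 1 was higher in the rumen and 6 were not called, with a median of -1.26. The shares over all genes tested were 30.1% and 13.8%. BPI, a protein that binds bacterial lipopolysaccharide, had 104, 179, 106, 173 and 196 CPM in the ileum and 0 or 1 CPM in the rumen (-6.60, SE 0.28, FDR 5.74e-10). TLR2, a receptor of bacterial lipoproteins, had 16, 15, 21, 23 and 22 CPM in the ileum and 6, 6, 3, 3 and 4 CPM in the rumen (-1.94, SE 0.22, FDR 4.97e-06). TLR4, the lipopolysaccharide receptor, overlapped, with 18, 38, 16, 31 and 18 CPM in the rumen and 26, 27, 29, 34 and 32 CPM in the ileum (-0.35, SE 0.22, FDR 0.172), and its sign turned to 0.041 under median-ratio scaling and 0.082 under quantile normalization. TICAM1, the adaptor of TLR3 and TLR4 signalling, was the member higher in the rumen, with 20 to 37 CPM against 7 to 14 CPM (1.32, FDR 6.09e-05).

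Of 17 interferon-stimulated genes, 11 were higher in the ileum (30.1% over all genes tested) and 0 in the rumen (13.8%). Their median was -1.78. IFITM2, a membrane protein that blocks virus entry, had 94 to 134 CPM in the ileum and 1, 0, 0, 0 and 0 CPM in the rumen (-6.57, SE 0.22, FDR 6.55e-11), and IFITM genes are close paralogs that may share reads. IFI27 had 181, 271, 324, 250 and 220 CPM in the ileum and 51, 82, 67, 40 and 16 CPM in the rumen (-2.42, SE 0.35, FDR 4.23e-05). ISG15, the ubiquitin-like product of interferon signalling, was not called, with 13, 78, 44, 103 and 44 CPM in the rumen and 29, 85, 84, 93 and 55 CPM in the ileum. In either region calf 1 had the lowest and calf 4 the highest value of ISG15.

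Of 24 complement genes, 20 were higher in the ileum (30.1% over all genes tested) and 1 in the rumen (13.8%). Their median was -2.92. These genes include CR2, which is given above with the B lineage. Other lists share members too, such as DMBT1 (intestinal and pattern recognition) and CSF1R (phagocyte and cytokine), so the list counts are not independent. C3, the central component, had 694, 756, 324, 2546 and 1860 CPM in the ileum and 24, 86, 9, 4 and 12 CPM in the rumen (-5.82, SE 0.71, FDR 9.74e-06). Calves 4 and 5 were the highest in the ileum, the samples in which the sum of the intestinal epithelial list was also highest, and the part of that in C3 was not tested. C9, a pore-forming component, was listed at 0 in the rumen and had 74 to 215 CPM in the ileum, and CFI, which cleaves C3b, had 0 or 1 CPM in the rumen and 76 to 235 CPM in the ileum. Among the membrane regulators that shield host cells, CD55 was the member called higher in the rumen. It had 46, 39, 26, 43 and 33 CPM in the rumen and 11, 14, 11, 18 and 17 CPM in the ileum (1.34, SE 0.19, FDR 4.39e-05). CD59 was at 20 to 31 CPM in the rumen and 10 to 13 CPM in the ileum, below the fold threshold (0.94, FDR 0.000127), and CD46 was at 140 to 174 and 225 to 338 CPM (-0.84). CLU, or clusterin, which binds the terminal complex, was higher in the ileum, at 864 to 1516 CPM against 119 to 355 CPM (-2.40, FDR 6.17e-06).

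Of 24 proliferation genes, 23 were higher in the ileum (30.1% over all genes tested), with a median of -2.61. The list summed to 2318 to 3049 CPM in the ileum and 418 to 737 CPM in the rumen. AURKB, a kinase of chromosome segregation, had 220, 244, 267, 168 and 167 CPM in the ileum and 15, 26, 18, 19 and 18 CPM in the rumen (-3.40, SE 0.17, FDR 2.55e-09). MCM2, a part of the replicative helicase, had 378, 417, 480, 315 and 319 CPM in the ileum and 40, 84, 62, 70 and 97 CPM in the rumen (-2.46, SE 0.21, FDR 3.74e-07). In the ileum calves 1 to 3 had the higher values of both genes, and these calves had lower epithelial sums than calves 4 and 5. ANLN, a protein of the cleavage furrow that also organises actin, was not called (0.17).

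Stromal genes pointed to the rumen and varied between calves. Of 22 extracellular matrix genes, 12 were higher in the rumen (13.8% over all genes tested) and 0 in the ileum (30.1%). Their median was 1.13. COL1A1 (ENSBTAG00000013103), the main chain of fibrillar collagen I, had 6155, 7915, 7898, 3233 and 1849 CPM in the rumen and 898, 743, 712, 1030 and 972 CPM in the ileum (2.45, SE 0.36, FDR 4.81e-05). COL3A1, the chain of collagen III, had 6440, 7295, 7281, 2836 and 2040 CPM in the rumen and 2224, 1734, 1627, 2312 and 2526 CPM in the ileum, where calf 5's rumen fell inside the ileal range (1.15, SE 0.35, FDR 0.00968). This call was lost under quantile normalization (0.35, FDR 0.308), without a filter on low values (FDR 0.181), without calf 2 or calf 3 (FDR 0.06 each), and without the rumen sample of either calf (0.98 each). The matrix count depended on the scaling and on calf 3. Median-ratio scaling gave 20 of 22, and leaving out the rumen sample of calf 3 gave 6.

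Smooth muscle genes spread widely across the rumen samples. DES (ENSBTAG00000005353), which encodes desmin, the intermediate filament of muscle, had 3654, 1816, 9571, 1054 and 2355 CPM in the rumen and 602, 357, 694, 626 and 514 CPM in the ileum (2.33, SE 0.46, FDR 0.000566). FLNA, the actin crosslinker filamin A, had 2937, 2336, 9061, 1174 and 2558 CPM in the rumen and 1043, 751, 854, 1081 and 894 CPM in the ileum (1.63, SE 0.40, FDR 0.00283). Calf 3 stood far above the other rumen samples for both genes, and it also had the lowest sum of squamous genes. Without that library the differences were 1.88 (FDR 0.000224) for DES and 1.22 (FDR 0.000819) for FLNA. In all, 3 of 4 smooth muscle genes were higher in the rumen (13.8% over all genes tested), with a median of 1.73.

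The vessel and nerve lists were short, and their counts depended on the scaling. Of 11 endothelial genes, 1 was higher in the rumen and 2 in the ileum, with a median of 0.37. Over all genes tested the shares were 13.8% and 30.1%, and lists of this size are too short to be set apart from them. CDH5, the adhesion molecule of endothelial junctions, had 26, 36, 37, 16 and 22 CPM in the rumen and 21, 19, 16, 22 and 23 CPM in the ileum (0.37, SE 0.22, FDR 0.143). CD34 was called in the rumen (1.04, FDR 0.00045), though the fold threshold was missed without the rumen sample of calf 2 (0.96) or calf 3 (0.92), without the ileum sample of calf 4 (0.999), without both samples of calf 1 (0.99), calf 2 (0.95) or calf 3 (0.95), and with a pseudocount of 5 (0.92). ICAM2, which leukocytes also carry, was called in the ileum (-2.53, FDR 3.5e-07). ENG, a co-receptor of endothelial cells, was not called (0.86) but was called under median-ratio scaling (1.26), which gave 5 endothelial genes higher in the rumen. Of 7 neural and glial genes, only the endothelin receptor gene EDNRB was called (-1.09, SE 0.31, FDR 0.0073), and it was not called under median-ratio scaling (-0.71) or without the rumen sample of calf 4 (-0.84) or the ileum sample of calf 4 (-0.95) or calf 5 (-0.93).

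**Figure D3:**
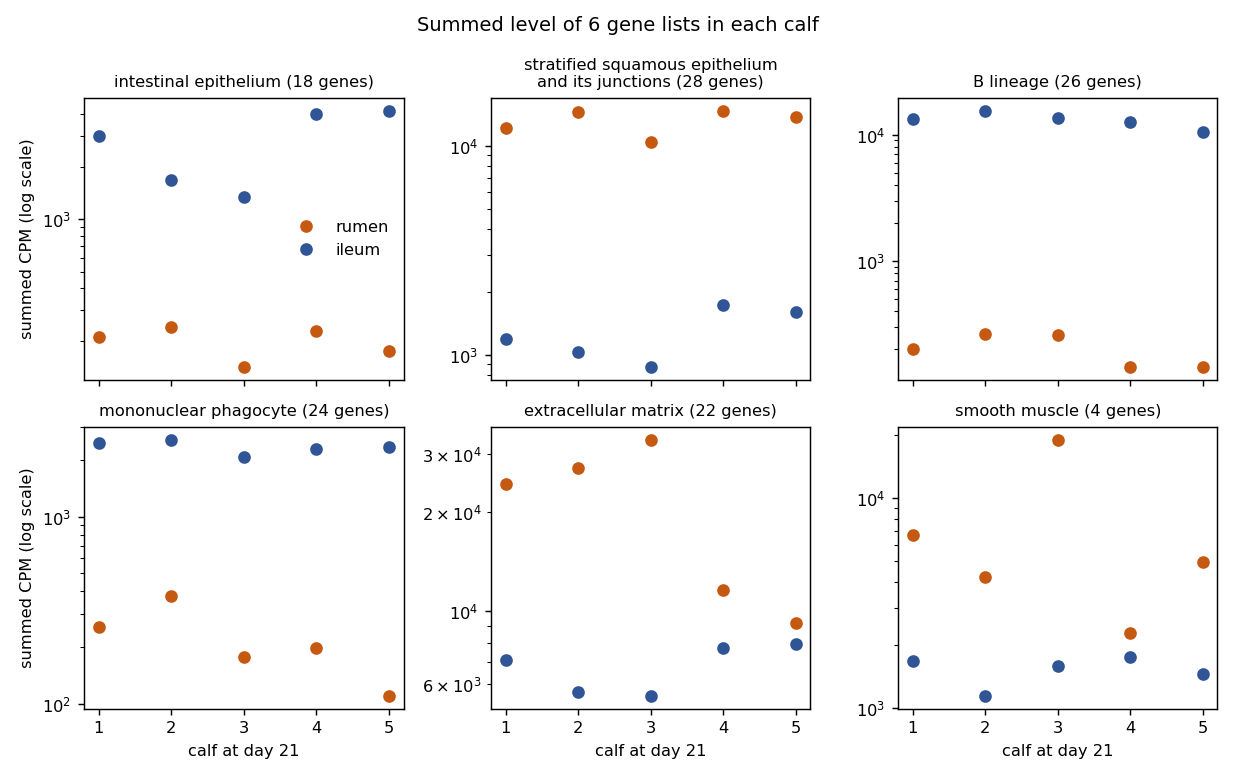
Summed CPM of 6 gene lists, on log scales, in the rumen (orange) and ileum (blue) of calves 1 to 5 at D21. Squamous and intestinal epithelial, B lineage and phagocyte sums are apart in every calf, while smooth muscle sums run from 2263 to 19014 CPM in the rumen, with calf 3 the highest.

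The regional difference was then compared with that at the ages before and after, in other calves of the same design. At D7, before starter was offered, 2041 genes were higher in the rumen and 3587 in the ileum, and at D42 the numbers were 1505 and 4604. Of the 162 immune-related genes higher in the rumen at D21, 135 (83.3%) were called the same way at D7 and 100 (61.7%) at D42. Over all genes these shares were 84.1% and 71.6%. Of the 476 higher in the ileum, 403 (84.7%) were called the same way at D7 and 453 (95.2%) at D42, against 78.1% and 90.8% over all genes. At D7, D21 and D42 alike, 58.6% of the 162 and 83.8% of the 476 were called, against 65.1% and 75.4% over all genes. Counted the other way, the D21 calls held 78.9% of the 171 immune-related D7 calls and 94.3% of the 106 D42 calls for the rumen. For the ileum they held 96.2% of 419 and 86.9% of 521. Over all genes they held 81.2% of the 2041 D7 calls and 93.7% of the 1505 D42 calls for the rumen. For the ileum these were 93.2% and 84.5%. None of the 162 or 476 was called in the opposite direction at either age, and neither was any of the 1970 or 4282 over all genes. The B lineage median was -5.35, -5.59 and -5.32 at D7, D21 and D42, and the squamous median 2.03, 2.22 and 1.92, while several lists in between changed places.

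The change in the regional difference itself was tested as an interaction. From D7 to D21, 8 of 14244 genes were called (0.0562%), 4 with a rise and 4 with a fall (0.0281% each), none of them among the 1280 named genes, and 1875 genes had an unadjusted p below 0.05. These counts were unstable: they were 2 and 3 with the calf as a block, 2 and 3 without calf 1 of D21, 1 and 4 without calf 4, and 0 and 2 without calf 5. The 4 that are given here are not in that table and were chosen after their values were seen, as those with the smallest FDR in each direction. ENSBTAG00000012900 fell in the rumen, from 259 to 909 CPM at D7 to 62 to 101 CPM at D21, while the ileum had 36 to 56 and 45 to 57 CPM (change -2.55, SE 0.34, FDR 0.0018). ENSBTAG00000034498 had 80 to 219 CPM in the rumen at D7 and 15 to 36 CPM at D21, and was listed at 0 in the ileum at both ages. ENSBTAG00000005244 went up in the rumen, from 2 to 6 CPM to 9 to 24 CPM, and ENSBTAG00000007763 from 11 to 22 CPM to 46 to 103 CPM, with 40 to 60 and 38 to 65 CPM in the ileum. For all 4, the rumen ranges of the ages did not overlap and the ileum ranges did. Age, diet and calves changed together between the samplings and cannot be told apart.

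From D21 to D42 limma called 0 genes, with 607 at an unadjusted p below 0.05 and a smallest FDR of 0.893. The matrix median was 1.13 at D21 and 0.26 at D42, with 12 and 1 genes higher in the rumen, but 0 of the 22 genes passed the test of the change. The D42 ileum sample of calf 1 had 193 CPM of IGHM and 1363 CPM of CDH17, against 3682 to 5220 and 167 to 500 CPM in the other calves. Without it, D42 gave 1887 and 4711 genes, a matrix median of 0.54 and 7 matrix genes higher in the rumen, and the test of the change from D21 again called 0.

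**Figure D4:**
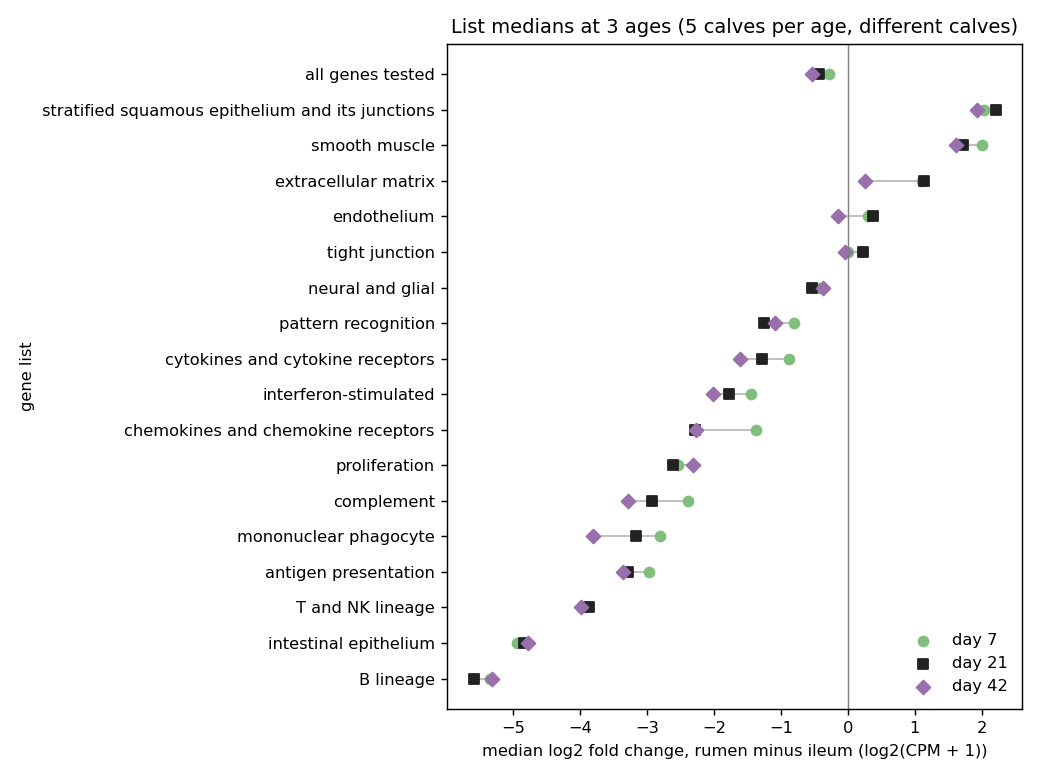
Median log2 fold change (rumen minus ileum, on the log2(CPM + 1) scale) of each gene list and of all genes tested at D7 (circles), D21 (squares) and D42 (diamonds), 5 calves per region and age, with different calves at each age. B lineage is the lowest and squamous epithelium the highest list at each age. The matrix median goes from 1.13 at D21 to 0.26 at D42, or to 0.54 without the D42 ileum sample of calf 1.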

How the data were processed

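Rumen and ileum tissue of 5 calves at D21 was analysed, with D7 and D42 for the test of change. Per the labels and the methods, the authors mapped the reads with TopHat2 2.0.10 to UMD3.1, a build of the bovine genome, counted them on Ensembl genes with HTSeq, and deposited a score per gene and sample, namely CPM rounded to whole numbers. Depth per library is unknown, so no count test was run and no interval that needs depth is given.

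Genes above 1 CPM in 50% or more of the 18 rumen or 18 ileum samples entered limma 3.58.1 (R 4.3.3; lmFit, eBayes with trend) on log2(CPM + 1), which understates changes of low genes. Benjamini-Hochberg adjustment ran over all 14244 genes. The fit was tested on simulated data. Other steps used Python 3.11.15. Alternatives covered the filter, pseudocount, scaling, weights, calf block, thresholds and left-out samples, and leaving out the D42 ileum sample of calf 1 at that age was chosen after seeing the data.

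The members and gene lists were chosen with earlier results of these data known. Symbols come from the study's immune-related gene table, of which a part with 1280 identifiers was at hand, 1243 of them with a symbol of their own. The genes named were the 10 largest called and non-overlapping differences in each direction, the largest call in each direction and the highest member of each list, 10 marker and receptor genes, and 2 identifiers without a symbol in each direction. Some genes this rule or the lists hold are not reported here. Other list members were chosen after their values were seen. Feature positions are not given, since no annotation of UMD3.1 was at hand. Same-numbered samples were taken as the same calf from the labels. At D21 their deviations from the group means correlated by 0.017 to 0.076, and 2 of 5 matched best with their own number. P-values of the main test measure the spread between calves within a region and age, without pairing.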

Additional observations from a re-analysis of the deposited data

Results flagged for a closer look

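In 5 of the 110 groups of 5 samples examined for the named genes, 1 calf lay far from the others on the log2(CPM + 1) scale, and chance alone puts about 1 in 20 groups past this limit. IL1RN had 100 CPM in the rumen of calf 3, against 174 to 210 CPM in the other calves. IGLL1 had 2262 CPM in the ileum of calf 5, against 3185 to 3498 CPM. IGJ had 15 CPM in the rumen of calf 2, against 2 to 3 CPM. IFITM2 was at 1 CPM in the rumen of calf 1 and at 0 in the others, which is the smallest step of the scale. EDNRB had 5 CPM in the rumen of calf 4, against 12 to 16 CPM. The EDNRB value lay away from the ileal values of 16 to 39 CPM, and without it the log2 fold change went from -1.09 to -0.84, below the fold threshold.

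The rumen-ileum difference changed from D7 to D21 by an interaction test for 4 identifiers given in the text. The change was 2.26 for ENSBTAG00000005244, 1.75 for ENSBTAG00000007763, -2.55 for ENSBTAG00000012900 and -2.44 for ENSBTAG00000034498 (log2), with FDR of 0.0143, 0.0243, 0.0018 and 0.0018. Whether starter feeding, age or the calves account for it was not tested.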

How the results depend on the processing

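With the calf as a replicate block, D21 gave 1972 genes higher in the rumen and 4284 in the ileum, and the D7 to D21 change gave 2 rises and 3 falls in place of 4 and 4. The block changed no count of calls at D21 by over 1.5 times. FDR alone gave 3154 and 7113 genes (270 immune-related genes higher in the rumen), and quantile normalization gave 3039 higher in the rumen (244 immune-related). Leaving out samples gave 1853 to 2135 and 4072 to 4485 genes, and 142 to 194 and 458 to 510 immune-related genes. For the D7 to D21 change, median-ratio scaling gave 7 rises, a pseudocount of 0.1 gave 8 falls, and leaving out 1 calf gave 0 to 4 rises and 2 to 6 falls (0 and 2 without calf 5). For the D21 to D42 change, no filter gave 1 fall and a pseudocount of 0.1 gave 2. Matrix genes higher in the rumen were 20 under median-ratio scaling and 6 to 17 with a sample or calf left out. Neural and glial genes higher in the ileum were 3 with a pseudocount of 0.1 or FDR alone, 2 with array weights, 0 with median-ratio scaling, quantile normalization or a pseudocount of 5, and 0 to 3 with samples left out. TLR4 reversed, to 0.041 under median-ratio scaling and 0.082 under quantile normalization. The causes were not tested. Of 1534 values of the 59 named genes under alternatives, 1507 kept their direction and side of the threshold. The smallest step of 1 CPM limits what can be read of genes near 0.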

Other observations

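Interferon-stimulated genes varied between calves within a region. IFI6 had 22, 121, 53, 18 and 15 CPM in the rumen of calves 1 to 5 and 39, 179, 96, 79 and 94 CPM in the ileum, with calf 2 the highest in either region. IFIT1, which binds viral RNA, had 4, 11, 5, 3 and 1 CPM in the rumen and 12, 27, 14, 28 and 19 CPM in the ileum, so its groups did not overlap. EIF2AK2, the kinase that stops translation upon double-stranded RNA, had 18, 71, 28, 40 and 34 CPM and 35, 38, 22, 47 and 52 CPM, without a regional call.

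IL2RB, a chain of the interleukin 2 and 15 receptors, was at 1, 2, 0 and 2 CPM in the rumen of calves 1 to 4 and at 23 CPM in that of calf 5, inside the ileal range of 14 to 33 CPM. The same rumen sample had 0 CPM of CD8A and 1 CPM of CD3E. These genes were chosen after their values were seen.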
